A study of Homo sapiens with 6 samples.

Results

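Cholesterol metabolism was followed through 32 genes in 6 RNA-seq libraries of the cell line MDA-MB-231, derived from a human triple-negative breast cancer. The genes were taken by name from a list covering synthesis, uptake, intracellular transport, storage, export and control by the SREBP proteins. That list was chosen with earlier results of these data known. All 32 were among the 61228 gene names of the count table, and 31 of them were among the 14704 genes with enough counts to be tested. The transporter ABCG1 was the member left out. The list does not hold every gene of the pathway.

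Both groups of 3 libraries came from cells given Cas9 by nucleofection and then grown in 3D gels of collagen I. Control cells received control guide RNAs. The treatment label of the other group, called KO here, names loss of 3 ETS transcription factor genes, ETV1, ETV4 and ETV5, after gene-specific guides, whereas its titles name ETV4 only. All KO library names carry an unexplained tag, c39, so it is not known whether these cells were a clone or a pool. The protocol names 2 collagen concentrations without tying either to a library. Nothing in the labels says that replicates were separate cultures. Each p-value therefore sets a difference only against the scatter among these samples, which may be technical scatter.

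Cells make cholesterol from acetyl-CoA by way of mevalonate, squalene and lanosterol, and the mevalonate branch also supplies the isoprenoids that anchor proteins to membranes. SREBP2, encoded by SREBF2, is the main transcription factor of these genes. It is made as a membrane protein of the endoplasmic reticulum and travels with its escort SCAP to the Golgi, where it is cut and released to the nucleus. When sterols are plentiful, INSIG proteins hold SCAP in the endoplasmic reticulum. Oxysterols activate the LXR receptors, which switch on genes of cholesterol export.

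Library totals ran from 18042601 to 23232770 counts. In the KO libraries ETV1 was lower by 0.65 on the log2 scale (SE 0.08, edgeR adjusted p = 0.0013) and ETV4 by 0.56 (SE 0.06, edgeR adjusted p = 6.1e-04), while the fold change of ETV5 was 0.011 on the log2 scale (SE 0.06, edgeR adjusted p = 0.932). A count of RNA does not show whether the protein was lost. All 7 marker genes listed for MDA-MB-231 cells were detected, with VIM between 4756 and 7290 CPM (counts scaled to a common library size). Of these LGALS1 alone passed the test, being lower by 0.23. In a fit with the replicate number as a block all 7 passed, 3 lower and 4 higher. Over all tested genes that fit called 16.7% lower and 17.2% higher, and the test without the block 6.42% lower and 3.28% higher. The part of these markers in the results on cholesterol genes was not tested. The markers of luminal cells summed to 10.5 to 11.3 CPM in control and 13.5 to 15.2 CPM in KO libraries, with ESR1 and PGR at 0.0539 CPM or less; GATA3 of this list did not pass (edgeR adjusted p = 0.0589) but did with the replicate block (edgeR adjusted p = 0.0072). Fibroblast markers summed to 13.3 to 13.6 and 11.9 to 14.0 CPM with DCN at 0.0425 CPM or less. COL1A1 had a mean of 9.46 CPM in control and 10.1 CPM in KO libraries, and PDGFRB 3.57 and 2.38 CPM. PDGFRB did not pass (edgeR adjusted p = 0.0676) but was lower with the replicate block (edgeR adjusted p = 0.0192). Immune markers summed to 1.04 to 1.99 and 1.30 to 1.77 CPM with CD3E at 0. Hepatocyte markers summed to 1.61 to 2.55 and 1.71 to 2.36 CPM. The main axis of variation, 49.3% of the variance, separated the groups, and the next, 39.4%, set the replicate 3 library of each group apart from the other libraries.

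Promoter stretches of 4 members are shown. SREBF2 was taken because, of the members past the test, it alone held the sterol element searched for. HMGCS1, MSMO1 and INSIG1, which had the largest decreases, were added after their values had been seen. Each stretch is 120 bases of the RefSeq promoter table (GRCh38.p14), 5′ to 3′ on the strand of the gene, and ends just before the gene start in GENCODE release 29. Capitals mark the sterol regulatory element TCACNCCAC, the NF-Y box CCAAT and the Sp1 box GGGCGG, each on either strand.
SREBF2, chr22:41832959-41833078, plus strand: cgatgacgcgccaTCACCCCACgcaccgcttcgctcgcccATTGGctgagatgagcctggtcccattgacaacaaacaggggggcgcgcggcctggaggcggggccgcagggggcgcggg
HMGCS1, chr5:43313513-43313632, minus strand: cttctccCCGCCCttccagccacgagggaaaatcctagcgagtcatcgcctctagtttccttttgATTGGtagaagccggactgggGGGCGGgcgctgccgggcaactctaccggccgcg
MSMO1, chr4:165327503-165327622, plus strand: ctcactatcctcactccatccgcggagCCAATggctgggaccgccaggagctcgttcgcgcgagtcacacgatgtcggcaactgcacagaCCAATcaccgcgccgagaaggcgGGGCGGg
INSIG1, chr7:155297656-155297775, plus strand: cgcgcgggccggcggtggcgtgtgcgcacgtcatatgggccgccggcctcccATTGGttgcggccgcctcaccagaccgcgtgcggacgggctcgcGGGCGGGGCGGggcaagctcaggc
All 4 stretches held an NF-Y box, and MSMO1 held 2.

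Promoter windows of 250 bases before to 50 bases after a start were found for 28 of the 32 members. The letters TCACNCCAC occurred in a window of 1 of these 28, against 1.44% of the 10757 tested genes that had a window. CCAAT occurred in 20 of 28 members (71.4%), against 43.3% of the tested genes, and in 13 of the 15 synthesis enzymes with a window. GGGCGG occurred in 27 of 28 members (96.4%), against 76.6%. The ETS motif CCGGAAGT occurred in 3 of 28 members (10.7%), against 9.95%, and these were IDI1, NR1H2 and NR1H3. The E-box CACGTG occurred in 5 of 28 (17.9%), against 12.2%. Both strands were searched for exact matches to these letters, N being any base, so variant forms of an element were not counted. The 5 motifs were counted separately even where they overlap, and genes with several windows counted once. The shares are descriptions of letters in a window and were not tested.

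The synthesis genes as a group were lower in KO cells. Of the 31 members tested, 18 fell and 2 rose, and 11 did not pass the test, which was edgeR's quasi-likelihood test with Benjamini-Hochberg adjustment over all tested genes and a threshold of 0.05. Over all 14704 genes the test called 9.7% in either direction, 6.42% lower and 3.28% higher. The median log2 fold change of the 31 members was -0.46, and that of all tested genes was 0.0040. Because the members were chosen with earlier results of these data known, these contrasts with all tested genes are descriptions only. Of the 18 listed synthesis enzymes, 14 fell and none rose, with a median of -0.60. Summed over the 32 members, the level was 2964 ± 36.3 CPM in control and 2117 ± 29.5 CPM in KO libraries (SD, n = 3), which is 71.4% of control. The synthesis enzymes summed to 1664 ± 21.6 and 1070 ± 12.3 CPM (SD, n = 3), or 64.3% of control.

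**Figure D1:**
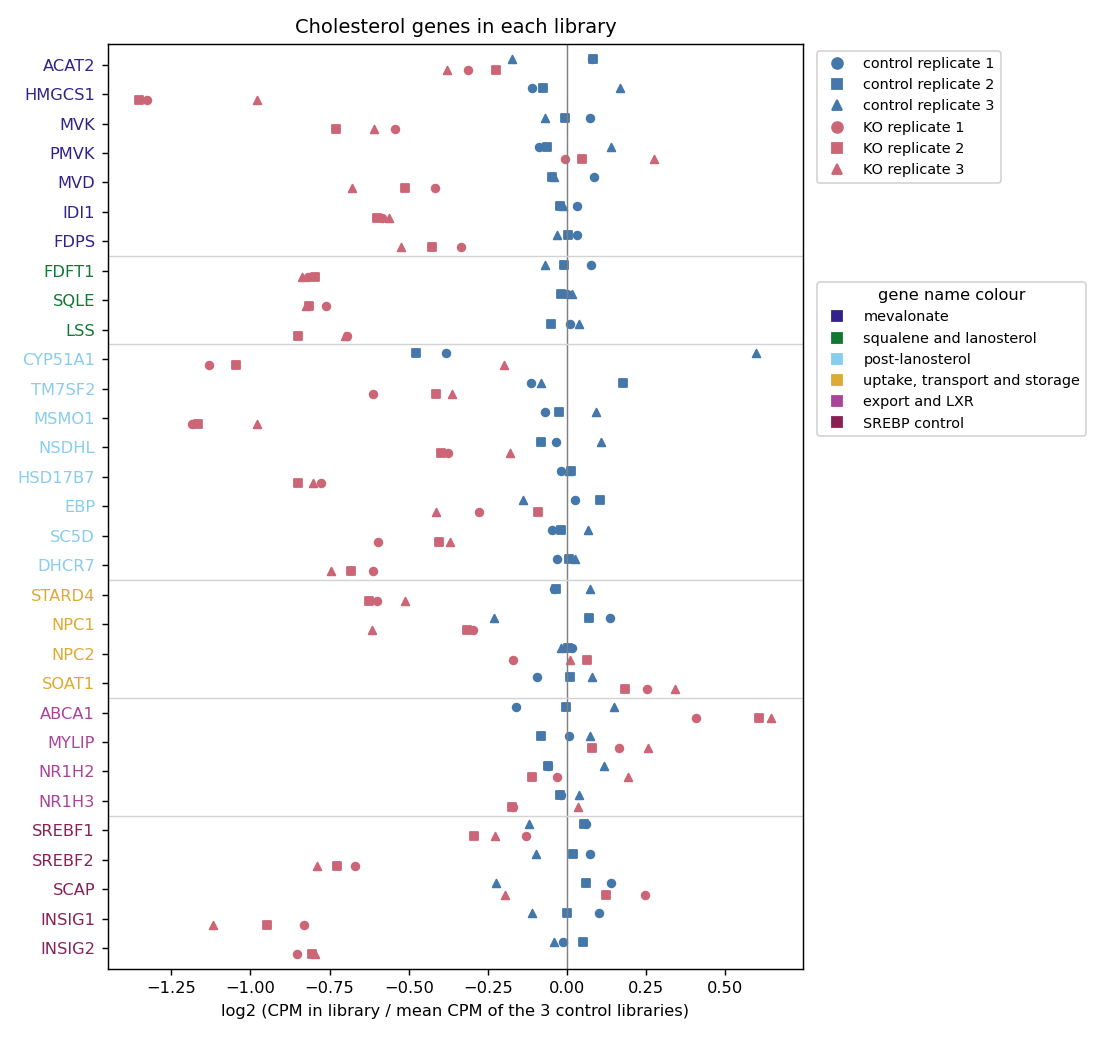
Each of the 31 tested members in each library, as log2 of its CPM over the mean of the 3 control libraries, grouped by step, with control libraries in blue and KO libraries in red. In 21 members every KO library lies below every control library, and in 3 members every KO library lies above.

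The 3 KO libraries of 21 members lay wholly below the 3 control libraries, an arrangement found in 16.8% of all tested genes, and those of 3 members lay wholly above, found in 14.9%. The 18 members that fell were all among the 21; the other 3 were ACAT2, NPC1 and SREBF1. The 3 above were SOAT1, ABCA1 and MYLIP. When each KO library was set against the control library of the same replicate number, 24 members were lower in all 3 pairs, as were 28.2% of all tested genes, and 5 were higher in all 3, as were 29.4%. A fit with the replicate number as a block called 23 members lower and 2 higher, including all 20 called without it, while over all genes it called 16.7% lower and 17.2% higher. The 5 added by the block were ACAT2, CYP51A1, EBP, NPC1 and SREBF1. Their calls rest on an assumed pairing by replicate number that the labels do not give. In bulk RNA, fewer cells expressing a gene and less RNA per cell cannot be told apart.

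**Figure D2:**
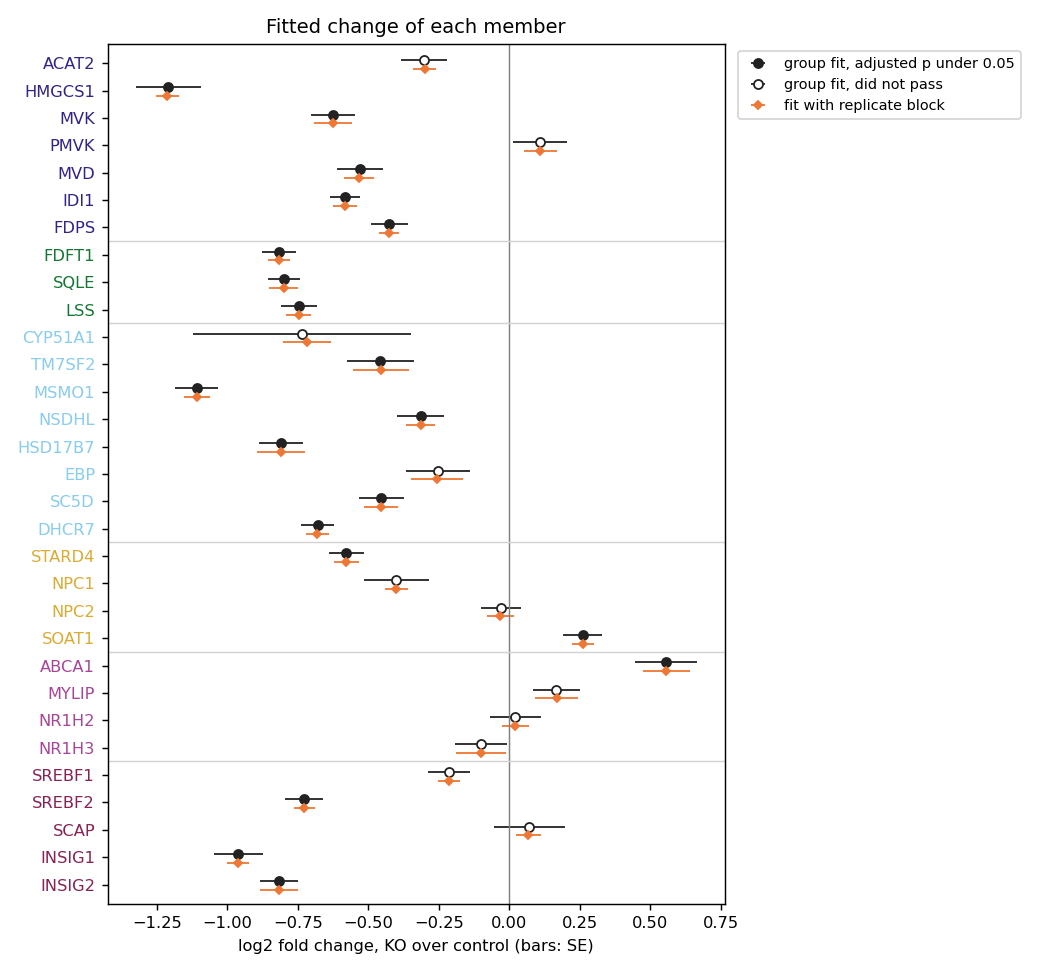
Log2 fold change of each tested member, KO over control, with its SE. Filled circles passed the edgeR test, open circles did not, and orange diamonds are the fit with the replicate block; the values run from -1.21 for HMGCS1 to 0.56 for ABCA1.

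Of the 7 listed enzymes of the early, mevalonate, part 5 were lower and none was higher, and their median log2 fold change was -0.53. These 7 are not all the enzymes of that part. HMGCS1, which joins acetyl-CoA to acetoacetyl-CoA to form HMG-CoA, had the largest decrease of all members. It stood at 158, 162 and 192 CPM in control replicates 1, 2 and 3, and at 68.0, 66.9 and 86.5 CPM in KO replicates 1, 2 and 3. Replicate 3 was the highest library within each group, yet the highest KO library was far below the lowest control library. HMGCS1 (ENSG00000112972, GRCh38 chromosome 5, 43289395 to 43313512, minus strand) fell by 1.21 on the log2 scale (SE 0.11, edgeR adjusted p = 4.85e-04), to 43.2% of control.

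IDI1, the isomerase that makes dimethylallyl diphosphate from isopentenyl diphosphate, stood at 123, 119 and 119 CPM in control and 80.2, 79.3 and 81.5 CPM in KO libraries. The libraries of each group were close together and the groups did not overlap. IDI1 fell by 0.58 (SE 0.05, edgeR adjusted p = 3.90e-04). MVK, mevalonate kinase, stood at 41.3, 39.1 and 37.4 CPM in control and 26.9, 23.7 and 25.7 CPM in KO libraries, again without overlap, and fell by 0.63 (SE 0.08, edgeR adjusted p = 0.00162). The decarboxylase MVD fell by 0.53 (SE 0.08, edgeR adjusted p = 0.00469), to 69.2% of control. FDPS, which makes farnesyl diphosphate, the branch point towards sterols and prenyl groups, fell by 0.43 (SE 0.07, edgeR adjusted p = 0.00494), to 74.4% of control. Per kilobase of exon, FDPS was the most abundant member in control libraries, at 65.7 CPM per kb, and its KO level was 48.9 CPM per kb.

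PMVK and ACAT2 did not pass. PMVK, which adds the next phosphate to phosphomevalonate, stood at 37.0, 37.7 and 43.4 CPM in control and 39.2, 40.7 and 47.6 CPM in KO libraries. Its groups overlapped, and it was the synthesis enzyme whose fold change was above 0, at 0.11 on the log2 scale (95% interval -0.11 to 0.33, edgeR adjusted p = 0.539). ACAT2, the cytosolic thiolase that makes acetoacetyl-CoA, stood at 133, 133 and 112 CPM in control and 102, 108 and 97.0 CPM in KO libraries. The groups did not overlap, but the fold change of -0.30 just missed the threshold (95% interval -0.49 to -0.12, edgeR adjusted p = 0.0524); with the replicate block the adjusted p was 6.61e-08. Of the exon bases of ACAT2, 52.3% lie opposite exons of TCP1 and SOD2. The strand setting of the counting is not given, so reads of these genes may not be told apart.

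All 3 enzymes that lead from farnesyl diphosphate to lanosterol fell, with a median log2 fold change of -0.80. FDFT1, squalene synthase, commits farnesyl diphosphate to sterols. It stood at 209, 197 and 189 CPM in control and 112, 114 and 111 CPM in KO libraries, and fell by 0.82 (SE 0.06, edgeR adjusted p = 1.40e-04). SQLE, the epoxidase that catalyses a rate-limiting oxygen-dependent step, stood at 78.8, 77.8 and 79.6 CPM in control and 46.4, 44.8 and 44.5 CPM in KO libraries, and fell by 0.80 (SE 0.06, edgeR adjusted p = 1.18e-04). LSS, which closes the ring system of lanosterol, stood at 117, 113 and 120 CPM in control and 72.0, 64.7 and 71.6 CPM in KO libraries, and fell by 0.75 (SE 0.06, edgeR adjusted p = 3.08e-04). In none of the 3 did the groups overlap, and their KO means lay close together as shares of control, at 56.8% for FDFT1, 57.4% for SQLE and 59.6% for LSS.

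Among the 8 listed enzymes that turn lanosterol into cholesterol, 6 fell and none rose, with a median of -0.57. MSMO1, the oxidase that begins removal of the methyl groups at carbon 4, had the smallest adjusted p of all members. It stood at 110, 114 and 123 CPM in control and 50.9, 51.5 and 58.6 CPM in KO libraries, with no overlap. MSMO1 (ENSG00000052802, GRCh38 chromosome 4, 165327623 to 165343160, plus strand) fell by 1.11 (SE 0.08, edgeR adjusted p = 9.29e-05), to 46.4% of control. DHCR7, the reductase of 7-dehydrocholesterol, stood at 161, 165 and 167 CPM in control and 108, 103 and 98.1 CPM in KO libraries, and fell by 0.68 (SE 0.06, edgeR adjusted p = 3.11e-04). HSD17B7, a 3-ketosteroid reductase, stood at 22.3, 22.8 and 22.7 CPM in control and 13.2, 12.5 and 12.9 CPM in KO libraries, and fell by 0.81 (SE 0.08, edgeR adjusted p = 5.05e-04). Neither DHCR7 nor HSD17B7 overlapped between groups. Copies of HSD17B7 annotated as pseudogenes held 11.7% as many counts as the gene. The handling of multi-mapping reads is not given, so how many reads of HSD17B7 were lost or misassigned is not known.

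The other members of this stretch had smaller or less even differences. SC5D, the desaturase that acts before DHCR7, fell by 0.45 (SE 0.08, edgeR adjusted p = 0.00908). TM7SF2, a sterol reductase, fell by 0.46 (SE 0.12, edgeR adjusted p = 0.0435), and NSDHL, a dehydrogenase of the carbon 4 demethylation, fell to 80.4% of control (edgeR adjusted p = 0.0462). These last calls were close to the threshold: when each library was left out in turn, TM7SF2 and NSDHL each passed in 1 of 6 fits, and each reached an adjusted p of 0.169. EBP, the sterol isomerase, stood at 15.8 ± 1.35 CPM in control and 13.3 ± 1.49 CPM in KO libraries (SD, n = 3), with overlap, and did not pass (95% interval -0.51 to 0.01, edgeR adjusted p = 0.208); with the replicate block its adjusted p was 0.0261.

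CYP51A1, the lanosterol demethylase, differed more between replicates than between groups. It stood at 17.2, 16.1 and 33.9 CPM in control and 10.2, 10.9 and 19.5 CPM in KO libraries. Replicate 3 was 2.04 times the mean of replicates 1 and 2 in control and 1.85 times in KO libraries, and KO replicate 3 was above control replicates 1 and 2. The fold change was -0.74 (95% interval -1.68 to 0.21, edgeR adjusted p = 0.307), whereas with the replicate block it was -0.72 and the adjusted p was 1.65e-09. Each same-numbered pair was lower in KO, by 0.75, 0.57 and 0.79 on the log2 scale (pairs 1, 2 and 3). Exons of other genes on the same strand, AC000120.2 and AC000120.3, cover 79.3% of the exon bases of CYP51A1 in GENCODE release 29, and the counts of CYP51A1 are uncertain for that reason. Whether that overlap has a part in the replicate difference was not tested.

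**Figure D3:**
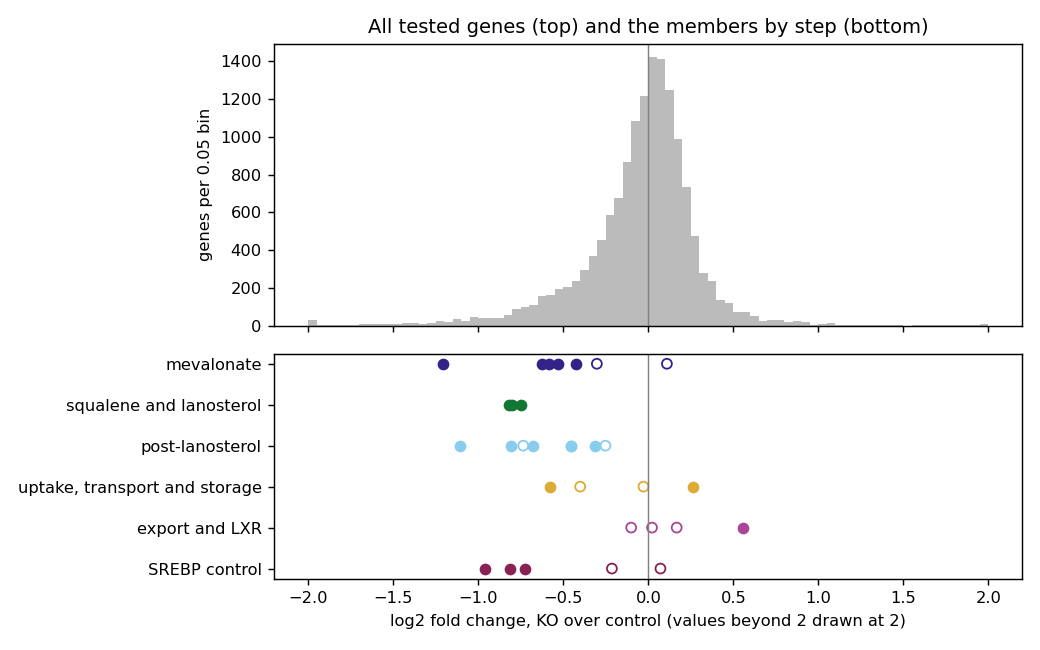
Log2 fold changes, KO over control, of all 14704 tested genes as a histogram (top) and of the 31 tested members by step (bottom), with filled circles for members past the edgeR test. The median of all genes is 0.0040, and the medians of the steps are -0.53, -0.80 and -0.57 for the synthesis steps, -0.73 for SREBP control, -0.21 for uptake, transport and storage, and 0.094 for export and LXR.

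Of the 5 genes of SREBP control 3 fell, SREBF2, INSIG1 and INSIG2, and none rose. SREBF2 stood at 254, 245 and 226 CPM in control and 152, 146 and 140 CPM in KO libraries. The groups were well apart. SREBF2 (ENSG00000198911, GRCh38 chromosome 22, 41833079 to 41907308, plus strand) fell by 0.73 (SE 0.07, edgeR adjusted p = 3.95e-04), to 60.4% of control. SREBF1 encodes SREBP1, which acts mainly on fatty acid synthesis. It stood at 214, 213 and 189 CPM in control and 187, 167 and 175 CPM in KO libraries. The highest KO library was just below the lowest control library, and the fold change of -0.21 did not pass (95% interval -0.38 to -0.05, edgeR adjusted p = 0.107); with the replicate block the adjusted p was 2.54e-05.

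SCAP, the escort, stood at 96.9, 91.8 and 75.4 CPM in control and 104, 96.0 and 76.9 CPM in KO libraries. Its groups overlapped, with replicate 3 lowest in each, and its fold change was 0.071 (95% interval -0.22 to 0.36, edgeR adjusted p = 0.785). INSIG1, which retains SCAP and is itself a well-known SREBP target, stood at 178, 166 and 154 CPM in control and 93.5, 86.1 and 76.5 CPM in KO libraries. INSIG1 (ENSG00000186480, GRCh38 chromosome 7, 155297776 to 155310235, plus strand) fell by 0.96 (SE 0.09, edgeR adjusted p = 3.79e-04), to 51.4% of control. INSIG2, the related retention protein, stood at 40.2, 42.0 and 39.3 CPM in control and 22.4, 23.2 and 23.3 CPM in KO libraries, and fell by 0.82 (SE 0.07, edgeR adjusted p = 2.48e-04), to 56.8% of control. Neither INSIG gene overlapped between groups.

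**Figure D4:**
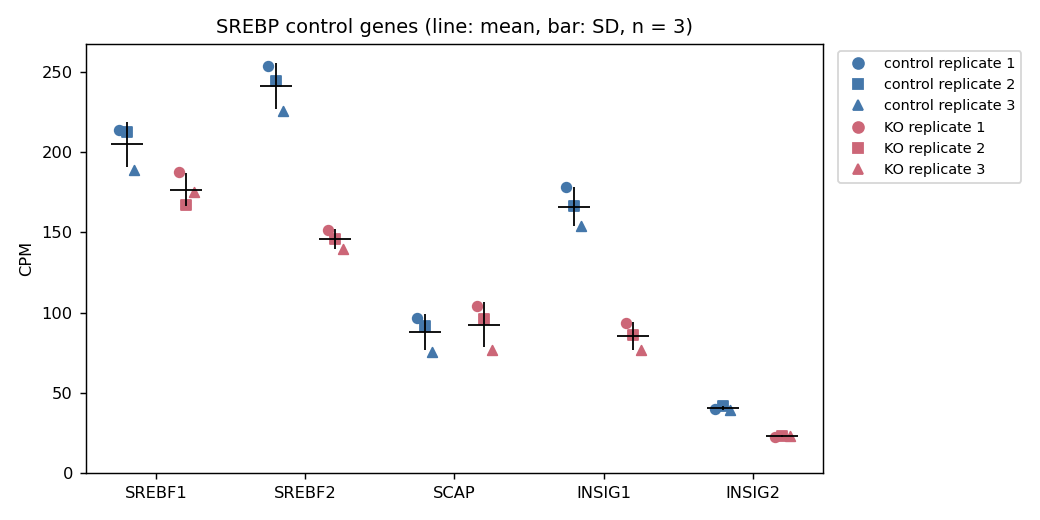
CPM of the 5 SREBP control genes in each library, with the mean (line) and SD (bar, n = 3) of each group, control in blue and KO in red. SREBF2, INSIG1 and INSIG2 are clearly separated between groups, SREBF1 narrowly so, and SCAP overlaps.

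Per kilobase of exon, SREBF2 stood above SREBF1 in every control library and below it in every KO library. The ratio of SREBF2 to SREBF1 was 1.26, 1.22 and 1.27 in control and 0.860, 0.927 and 0.847 in KO libraries, a difference of -0.51 on the log2 scale (exact two-sided permutation p = 0.1). The ratio of SREBF2 to SCAP was 2.23, 2.27 and 2.55 in control and 1.24, 1.29 and 1.55 in KO libraries, a difference of -0.79 (exact two-sided permutation p = 0.1). In both ratios the groups did not overlap. The ratio of INSIG1 to SREBF2 was 1.45, 1.41 and 1.41 in control and 1.27, 1.22 and 1.13 in KO libraries, also without overlap (difference -0.24, exact two-sided permutation p = 0.1). The ratio of INSIG1 to INSIG2 overlapped between groups, at 4.24 to 4.80 in control and 3.55 to 4.51 in KO libraries (difference -0.15, exact two-sided permutation p = 0.3). With 3 libraries against 3, 0.1 is the smallest p this test can give. After Benjamini-Hochberg adjustment over the 5 ratios computed, the smallest exact p was 0.167, so none could pass.

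The 14 other regulators of SREBP processing and sterol-driven degradation that were listed were all tested. Of these 1 rose and none fell, while the same test called 3.28% of all tested genes higher and 6.42% lower. The median log2 fold change of the 14 was 0.029. The proteases that cut SREBP in the Golgi had fold changes of 0.022 (MBTPS1, edgeR adjusted p = 0.907) and -0.0032 (MBTPS2, edgeR adjusted p = 0.989). UFD1 and ERLIN2, which act in degradation at the endoplasmic reticulum, had 0.27 and -0.19 (edgeR adjusted p = 0.101 and 0.109), and both passed with the replicate block (edgeR adjusted p = 5.79e-05 and 0.00621). With the replicate block 2 of the 14 were lower and 3 higher, while that fit called 16.7% of all tested genes lower and 17.2% higher.

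In the step of uptake, intracellular transport and storage 1 of 4 genes was lower and 1 higher. The test called 6.42% of all tested genes lower and 3.28% higher. None of the 4 is a lipoprotein receptor. The receptors VLDLR and LRP1 belong to the wider list given below. STARD4, a carrier of cholesterol between membranes, stood at 109, 109 and 118 CPM in control and 73.9, 72.5 and 78.6 CPM in KO libraries. The groups were apart and STARD4 fell by 0.58 (SE 0.06, edgeR adjusted p = 7.93e-04). SOAT1, which esterifies cholesterol for storage in lipid droplets, stood at 113, 122 and 128 CPM in control and 144, 137 and 153 CPM in KO libraries. Every KO library was above every control library, and SOAT1 rose by 0.26 (SE 0.07, edgeR adjusted p = 0.0482). That call was fragile: it was lost in 5 of the 6 fits that left out a library, with an adjusted p of up to 0.191. The ratio of SOAT1 to NCEH1, a cholesterol ester hydrolase, overlapped between groups (0.339 to 0.393 in control and 0.384 to 0.441 in KO libraries, exact two-sided permutation p = 0.2).

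NPC1 and NPC2 pass cholesterol out of the lysosome. NPC1 stood at 136, 130 and 105 CPM in control and 101, 99.3 and 80.6 CPM in KO libraries. Replicate 3 was the lowest in each group, the groups did not overlap, and the fold change of -0.40 did not pass (95% interval -0.66 to -0.14, edgeR adjusted p = 0.0634); with the replicate block the adjusted p was 2.08e-11. NPC2 stood at 78.6 ± 0.942 CPM in control and 77.1 ± 6.39 CPM in KO libraries (SD, n = 3), with overlap and a fold change of -0.029 (95% interval -0.19 to 0.13, edgeR adjusted p = 0.85).

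Of the genes of export and LXR, 1 of 4 tested rose and none fell. Higher calls made up 3.28% of all tested genes and lower calls 6.42%. ABCA1, which loads cholesterol onto apolipoprotein A-I, stood at 13.2, 14.7 and 16.3 CPM in control and 19.5, 22.4 and 23.1 CPM in KO libraries. All KO libraries were above all control libraries. ABCA1 (ENSG00000165029, GRCh38 chromosome 9, 104781002 to 104928237, minus strand) rose by 0.56 (SE 0.11, edgeR adjusted p = 0.0147), to 147% of control. The call was lost when control replicate 1, control replicate 2 or KO replicate 2 was left out, with an adjusted p of up to 0.0668. Per kilobase of exon ABCA1 was the least abundant tested member in control libraries, at 1.30 CPM per kb.

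The other genes of export and LXR did not pass. MYLIP, an LXR target that drives lipoprotein receptors to degradation, stood at 20.1, 19.0 and 21.1 CPM in control and 22.5, 21.2 and 23.9 CPM in KO libraries. The groups were narrowly apart, and the fold change was 0.17 (95% interval -0.02 to 0.36, edgeR adjusted p = 0.262). The LXR receptor genes had fold changes of -0.10 for NR1H3, at 16.3, 16.3 and 17.0 CPM in control and 14.7, 14.6 and 16.9 CPM in KO libraries (95% interval -0.31 to 0.11, edgeR adjusted p = 0.556), and 0.022 for NR1H2 (95% interval -0.18 to 0.23, edgeR adjusted p = 0.917). Both overlapped between groups. ABCG1, an exporter to HDL particles, had 3, 2 and 0 counts in control and 0, 1 and 0 counts in KO libraries. A count of 0 allows up to 3 counts, or 0.128 to 0.165 CPM per library, so no difference was detectable at this depth; these limits cover counting error only.

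Of 7 other LXR targets and partners that were listed, 6 were tested. None passed, while the same test called 6.42% of all tested genes lower and 3.28% higher. The median of the 6 was -0.11. With the replicate block 2 were lower and 1 higher, while over all tested genes it called 16.7% lower and 17.2% higher. PLTP, a phospholipid transfer protein, had a fold change of -0.59 (edgeR adjusted p = 0.130), and RXRB, a partner receptor of LXR, had -0.19 (edgeR adjusted p = 0.145). Both passed as lower with the replicate block (edgeR adjusted p = 0.0111 for PLTP and 8.43e-04 for RXRB).

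A wider list of sterol genes held 24, of which 19 were tested. Of these 5 fell and none rose, while 6.42% of all tested genes were called lower and 3.28% higher. The median of the 19 was -0.12. The lipoprotein receptor VLDLR fell by 0.58 (SE 0.07, edgeR adjusted p = 0.0014), the endocytic receptor LRP1 by 0.53 (SE 0.08, edgeR adjusted p = 0.0054), and GRAMD1A, which moves cholesterol from the plasma membrane to the endoplasmic reticulum, by 0.37 (SE 0.07, edgeR adjusted p = 0.0096). LIPA, the lysosomal acid lipase, was named after its value was seen and fell by 0.20 (SE 0.05, edgeR adjusted p = 0.0456). With the replicate block 7 were lower and 1 higher, while over all tested genes it called 16.7% lower and 17.2% higher.

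SREBP also acts on fatty acid synthesis, and 6 of 14 tested genes of that list fell and none rose, with a median of -0.30. Among all tested genes the same test called 6.42% lower and 3.28% higher. SCD, the desaturase that makes oleate, stood at 1566, 1525 and 1494 CPM in control and 797, 778 and 759 CPM in KO libraries, and fell by 0.97 (SE 0.06, edgeR adjusted p = 5.0e-05). ACSS2, which makes acetyl-CoA from acetate, fell by 0.91 (SE 0.07, edgeR adjusted p = 1.44e-04), and LPIN1, a phosphatidate phosphatase, fell by 0.69 (SE 0.06, edgeR adjusted p = 3.95e-04). With the replicate block 9 were lower and 2 higher, while over all tested genes it called 16.7% lower and 17.2% higher.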

How the data were processed

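The authors deposited whole-number counts per gene for 6 libraries. FastQC 0.11.9, featureCounts, STAR 2.7.9a, R 4.1.1 and the build hg38 are named, with no roles, per the submitters' processing notes. Not given in the sources used here are the gene annotation, the strand setting and the handling of multi-mapping reads. Libraries were made with a stranded kit for mRNA, per the labels' protocols.

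Genes were kept by edgeR's filterByExpr, scaled with TMM factors and compared with edgeR's quasi-likelihood test (glmQLFit, robust), group as the single term, with Benjamini-Hochberg adjustment over all tested genes and a threshold of 0.05. CPM are counts scaled by TMM library sizes; per kb values divide by the exon length in GENCODE release 29. Intervals are 95%, unadjusted, from the same fit. The versions were edgeR 4.0.16, DESeq2 1.42.0 and limma 3.58.1 under R 4.3.3. The procedure was tested on simulated data drawn without a replicate effect, so that test does not cover the replicate differences seen here. Totals of 18042601 to 23232770 counts set the precision; for a gene with no count, 3 counts are the limit.

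The members and lists were chosen with earlier results of these data known. All members are reported. Values per library are given for the 3 smallest adjusted p in each step, every SREBP control gene, members called against their step and members not tested, and for some others that missed the threshold; for other lists, up to 3 genes with the smallest adjusted p. In the other lists, 3 genes are included in the counts and medians but not reported by name here. Pathway genes outside these lists were not analysed here.

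Both groups carry replicate numbers 1, 2 and 3. Deviations from group means correlated at 0.55, 0.45 and 0.83 within same-numbered pairs across 10032 genes, each above 0.1. The replicate block takes the numbers to pair the libraries, which the labels do not say. For replicates 1 and 2 the crossed pairs correlated more strongly, at 0.59 for control 1 against KO 2 and 0.58 for control 2 against KO 1. Only replicate 3 correlated best with its own number. These correlations therefore cannot show that replicates 1 and 2 are paired by number. Every adjusted p of the block fit rests on that assumed pairing. The alternatives tried were the replicate block, other scalings and filters, DESeq2, limma-voom and leaving out libraries.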

Additional observations from a re-analysis of the deposited data

How the results depend on the processing

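Of the 20 members called, 16 passed in all 14 alternatives, 12 of them synthesis enzymes; TM7SF2, NSDHL, SOAT1 and ABCA1 missed the threshold in at least 1. Between 16 and 23 members were lower in every alternative, and between 12 and 17 synthesis enzymes. The replicate block called 4983 genes in all, and leaving out both replicate 3 libraries called 3754, against 1427; leaving out 1 library at a time gave 572 to 1741. The share of lower calls was 66.2%, 49.4% with the replicate block, 53.9% without both replicate 3 libraries, 55.4% without KO replicate 3 and 76.5% without control replicate 1. Members higher numbered 2, but 1 with upper-quartile scaling, with a minimum of 5 CPM and with limma-voom, and 0 to 2 with 1 library left out. The median log2 fold change of the members, -0.46, was -0.48 without both replicate 3 libraries and -0.50 to -0.46 with 1 library left out. Reversed signs occurred only in NR1H2 (-0.00902 without both replicate 3 libraries, -0.0519 to 0.0887 with 1 library left out), NPC2 (-0.0722 to 0.0470) and SCAP (-0.0302 to 0.21), none of which passed in any alternative. The cause was not tested.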
